A study of Homo sapiens with 4 samples.

Results

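HPGD encodes hydroxyprostaglandin dehydrogenase, the enzyme that starts the breakdown of prostaglandins, and it is described here with 9 other genes of prostaglandin synthesis, breakdown, uptake and reception in OE33 cells depleted of ARID1A. The genes were taken by symbol, as those on a list of 10 (HPGD, PTGS1, PTGS2, PTGES, PTGES2, PTGES3, PTGR1, SLCO2A1, PTGER2 and PTGER4). All 10 were found among the 18132 genes with a probe set of their own, on 32 of the 49293 probe sets tested. HPGD heads the list because it had the largest rise of all genes in the comparison of knockdown with mock, and the other genes were added around it by function with results of the same comparison known. The changes of these 10 genes are therefore given as a description, with 95% confidence intervals for the size. Where calls or p-values of these genes appear below, they are no further support.

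OE33 is a human tumour cell line of long standing, started from an oesophageal adenocarcinoma, and the ARID1A protein binds DNA as a part of the chromatin remodelling complex SWI/SNF. Cells grown with 15% serum received either a pool of siRNAs against ARID1A (knockdown) or a pool of non-targeting siRNAs (mock), each at 50 nM with a lipid reagent 24 hours after plating, and were harvested 48 hours later. The siRNA pool lowers the mRNA for a time and deletes nothing, and a single cell line was used. Each condition had 2 biological replicates, each measured on 1 Affymetrix PrimeView array, so 4 arrays in all limit the precision. Levels are log2 expression values of probe sets (groups of probes for a transcript), and a difference of 1 is a change of 2-fold.

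Prostaglandins are lipid signals made from arachidonic acid. The cyclooxygenases PTGS1 and PTGS2 convert it to a common precursor, which the prostaglandin E synthases PTGES, PTGES2 and PTGES3 turn into prostaglandin E2, and this acts on cell-surface receptors such as those encoded by PTGER2 and PTGER4. The transporter SLCO2A1 carries prostaglandins back into cells, where HPGD oxidises them and PTGR1 reduces the product further. In the epithelium of the gut, PTGS2 is known for its induction in tumours and HPGD for its loss there.

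The siRNA target came first. ARID1A stood at 7.53 on both knockdown arrays and at 9.28 and 9.33 on the mock arrays, a log2 change of -1.78. Array medians lay between 5.89 and 5.93. As a measure of RNA integrity, the 3′ minus 5′ difference of beta-actin was 1.10 to 1.21 in knockdown and 0.995 to 1.04 in mock, without overlap. The same measure for GAPDH was 0.201 to 0.215 in knockdown and 0.199 to 0.211 in mock. Their part in the values below was not tested. Among 8 markers of columnar epithelium, KRT8, KRT18, KRT19, EPCAM, CDH1 and CLDN4 stood at percentile 98.2 or above among the probe sets, while VIL1 and CDX1, markers of intestinal cells, read 3.68 to 3.82 and 5.17 to 5.39. Markers of fibroblasts, leukocytes, mast cells and endothelium, cell types a pure culture should lack, read 2.72 to 6.15. The summed levels of the 6 fibroblast markers were 25.11 to 25.95 in knockdown and 25.95 to 26.61 in mock, those of the 4 leukocyte markers 18.5 to 18.6 and 18.7 to 18.8, and those of the 3 endothelial markers 16.30 to 16.33 and 16.7 to 16.8. The 4 squamous epithelial markers summed to 28.27 to 28.32 in knockdown and 27.77 to 27.97 in mock, the 8 columnar ones to 88.3 to 88.5 and 88.16 to 88.19, and the 2 mast cell ones to 6.68 to 6.79 and 6.70 to 7.02. Their part in the results was not tested either. The squamous keratin KRT13 had a change of 0.26 (limma adjusted p = 0.218). None of the 15 fibroblast, leukocyte, mast cell and endothelial markers passed the test described below. In limma 4 of them, all lower, had an unadjusted p under 0.05, against 17% of all genes. Of these, DCN had a change of -0.44, but of 0.08 to 0.20 on its 3 other probe sets. The second probe sets of PECAM1, CDH5 and CD14 had changes of -0.33, -0.15 and -0.30.

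HPGD was about 3-fold higher after ARID1A knockdown, and every probe set that reads it showed the rise. On 11743655_a_at, whose probes match transcripts of HPGD alone by the array's naming, the knockdown arrays read 6.96 and 7.09 and the mock arrays 5.32 and 5.45. The knockdown arrays were thus 0.13 apart and the mock arrays 0.13 apart, while the lower knockdown array exceeded the higher mock array by 1.51. The log2 change was 1.64 with an SE of 0.09, a 3.11-fold difference with a 95% confidence interval of 2.67 to 3.64.

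The brightest HPGD probe set, 11743657_x_at, read 8.54 and 8.77 in knockdown and 7.17 and 6.83 in mock, a log2 change of 1.65 (SE 0.14). Some probes of a probe set ending in _x_at may match other sequences. The partner of 11743657_x_at, 11743656_a_at, specific to HPGD, read 8.04 and 8.26 in knockdown and 6.66 and 6.33 in mock. The pair differed by the same amount on all 4 arrays to within 1e-05, so they are not separate measurements.

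The 5 other HPGD probe sets all end in _x_at or _s_at. The largest change was that of 11748513_x_at, which read 8.16 and 8.35 in knockdown and 6.60 and 6.40 in mock (log2 change 1.76, 3.38-fold). The smallest was that of 11753601_x_at, which read 7.51 and 7.52 in knockdown and 6.32 and 6.23 in mock (log2 change 1.24, 2.37-fold). Over all 8 probe sets the median change was 1.65, and the gap between the lower knockdown and the higher mock array ran from 1.17 on 11758083_s_at to 1.56 on 11748513_x_at. No HPGD probe set had overlapping groups. On 7 of the 8 the array of mock replicate 2 was the lowest of the 4, and on 11743655_a_at that of mock replicate 1.

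**Figure D1:**
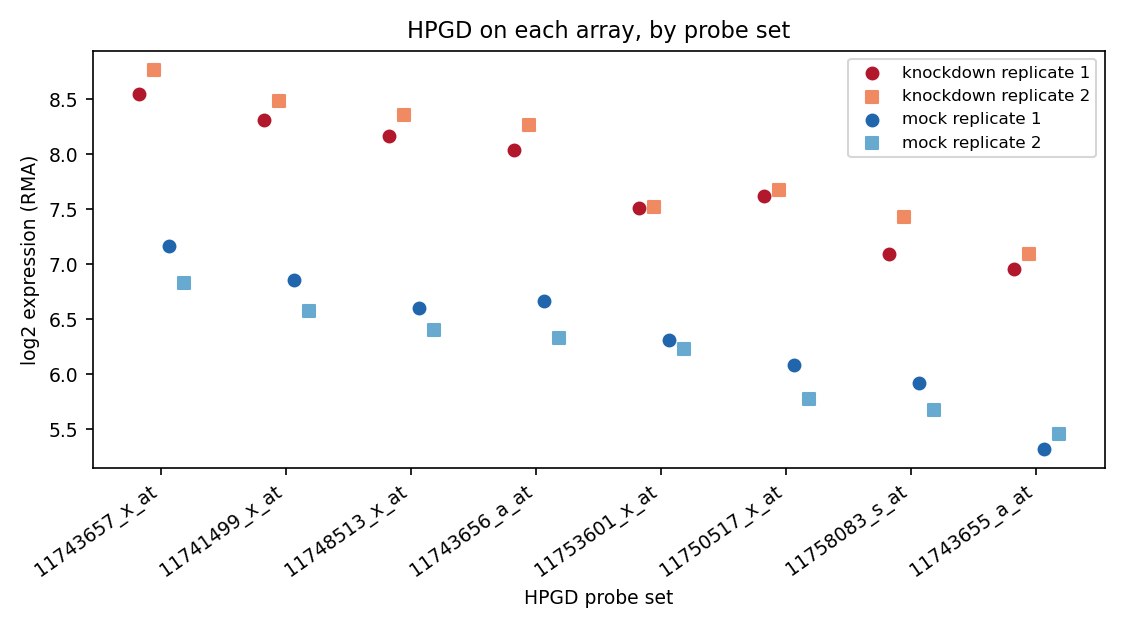
Log2 expression (y axis) of the 8 HPGD probe sets (x axis, brightest first) on each of the 4 arrays, 1 point an array. The 2 knockdown arrays lie above the 2 mock arrays on every probe set, by at least 1.17.

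By rank of log2 change among all 49293 probe sets, HPGD held the 7 largest rises, and its 11753601_x_at was 11th. By percentile among all probe sets, the 8 stood at 42.6 to 63.8 in mock cells and at 63.8 to 81.3 in knockdown cells. The mock arrays of 11743655_a_at, at 5.32 and 5.45, lay within the 2.72 to 6.15 of markers a pure culture should lack. Those of the brightest probe set, at 7.17 and 6.83, lay above that range. At low levels RMA values understate a change. In limma's test over all probe sets, at an adjusted p under 0.05, all 8 HPGD probe sets were called, where 0.316% of all probe sets were called. Since HPGD was chosen for this change, the count is no further support for it. The 8 probe sets read the same gene, so their ranks and calls are not separate findings. With any 1 of the 4 arrays left out 0 of the 8 were called, and the log2 change at the brightest was between 1.49 and 1.82. With the replicate number as a block 0 of the 8 were called too.

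**Figure D2:**
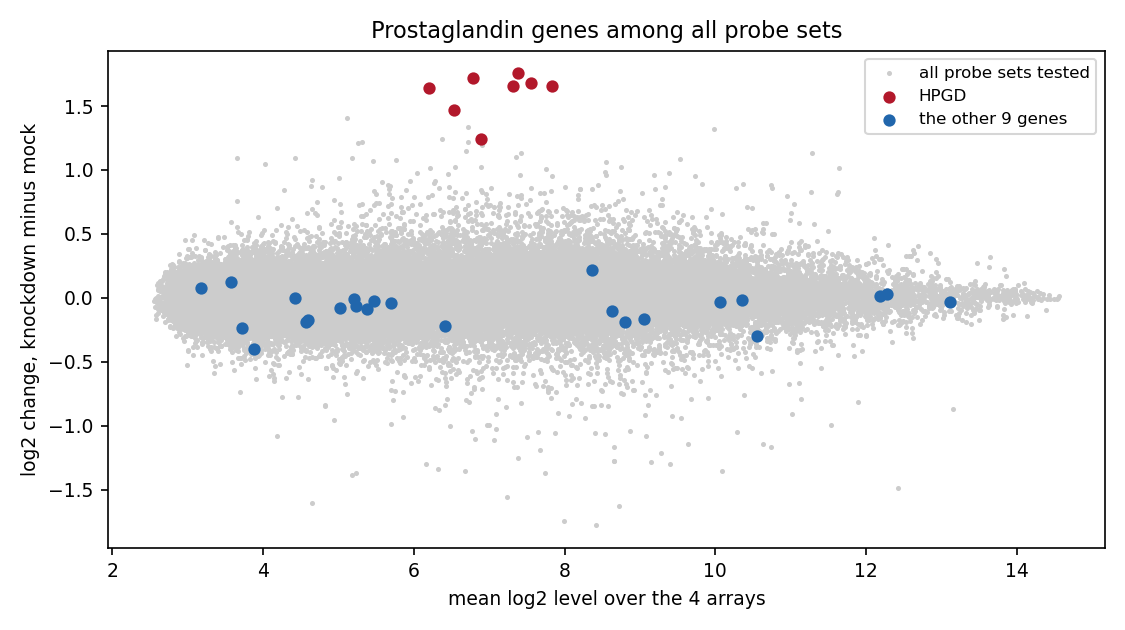
Log2 change of knockdown minus mock (y axis) against the mean log2 level over the 4 arrays (x axis) for all 49293 probe sets tested (grey), the 8 of HPGD (red) and the 24 of the other 9 genes (blue). HPGD lies at changes of 1.24 to 1.76 and the other genes between -0.40 and 0.22.

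HPGD has 2 annotated starts in RefSeq (GRCh38.p14), and the bases before them are shown because HPGD moved most while its promoters differ in kind. Each window holds the 250 bases before a start, on the minus strand of chromosome 4, written 5′ to 3′. The downstream start has the window chr4:174522489-174522738, and the upstream start has chr4:174522894-174523143. Capitals mark matches to 6 motifs, searched on both strands except for a TATA box, sought on the gene's strand, and of these motifs the windows hold an E-box of the kind bound by Snail and ZEB repressors (CAGGTG or CACCTG) and a GC box (GGGCGG or CCGCCC).
HPGD downstream start: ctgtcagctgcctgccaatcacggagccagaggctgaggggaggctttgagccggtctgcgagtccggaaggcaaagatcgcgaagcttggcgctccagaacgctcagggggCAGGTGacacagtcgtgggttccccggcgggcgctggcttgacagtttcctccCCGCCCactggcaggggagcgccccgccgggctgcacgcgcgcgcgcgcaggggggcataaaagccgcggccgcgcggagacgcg
HPGD upstream start: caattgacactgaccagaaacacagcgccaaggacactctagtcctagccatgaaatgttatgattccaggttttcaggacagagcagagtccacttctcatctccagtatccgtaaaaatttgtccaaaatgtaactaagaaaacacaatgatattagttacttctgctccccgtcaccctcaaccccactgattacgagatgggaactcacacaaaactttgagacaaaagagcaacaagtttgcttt
The downstream window is rich in CpG, with 29 against a median of 11 over 35116 such windows, and the upstream window has 4. The E-box begins 138 bases and the GC box 85 bases before the downstream start, and no motif was found in the upstream window. An E-box of this kind was present in 17.5% of all windows and a GC box in 42.6%. Which start the HPGD transcripts used was not measured.

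SNAI1 and SNAI2, Snail repressors that bind such an E-box, were among 4 known regulators of HPGD set out with the lists below. The ZEB repressors were not on the lists. SNAI1 and SNAI2 each have a single probe set. SNAI2 read 6.04 and 5.82 in knockdown and 6.45 and 6.32 in mock (log2 change -0.45, limma adjusted p = 0.141). SNAI1 read 5.66 and 5.58 in knockdown and 6.01 and 5.90 in mock (-0.33, adjusted p = 0.156). The knockdown arrays were below the mock arrays for both genes, but neither passed the test. EGFR, whose signalling is known to repress HPGD, had a change of 0.40 (adjusted p = 0.106), and its 7 other probe sets ran from -0.11 to 0.37. FOXA2, a forkhead factor known to favour HPGD, had a change of -0.03. Binding to the HPGD promoter was not measured, and the part of these 4 genes in the HPGD change was not tested.

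PTGR1, which reduces the product of HPGD, did not pass limma's test over all probe sets. Its only probe set read 8.49 and 8.46 in knockdown and 8.30 and 8.20 in mock. Both knockdown arrays were above both mock arrays, and the difference was 0.22 log2 units (95% confidence interval 0.03 to 0.41, 1.16-fold).

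Neither inducible synthase had a probe set past the test. PTGES, the inducible microsomal prostaglandin E synthase, read 10.41 and 10.39 in knockdown and 10.72 and 10.68 in mock on its brightest probe set, 11754526_a_at. The arrays of a group were less than 0.05 apart there, and the log2 change was -0.30 (95% confidence interval -0.48 to -0.12, 1.23-fold lower). Its other probe sets had changes of -0.16 (-0.36 to 0.03) and -0.19 (-0.41 to 0.03), and on all 3 the knockdown arrays lay below the mock arrays.

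PTGS2, the inducible cyclooxygenase, read 6.28 and 6.32 in knockdown and 6.46 and 6.58 in mock on 11724037_at. These groups did not overlap, and the log2 change was -0.22 (95% confidence interval -0.42 to -0.02, 1.16-fold lower). A dim probe set, 11724036_a_at at percentile 15.6, had a similar change of -0.23 (-0.42 to -0.04). The third, 11724038_a_at, read 4.38 and 4.46 in knockdown against 4.46 and 4.40 in mock, with overlapping arrays and a change of 0.00. The promoters of PTGES (chr9:129753043-129753292, minus strand) and PTGS2 (chr1:186680424-186680673, minus strand) are shown as those of the inducible synthases, again as the 250 bases before the start, with matches in capitals.
PTGES: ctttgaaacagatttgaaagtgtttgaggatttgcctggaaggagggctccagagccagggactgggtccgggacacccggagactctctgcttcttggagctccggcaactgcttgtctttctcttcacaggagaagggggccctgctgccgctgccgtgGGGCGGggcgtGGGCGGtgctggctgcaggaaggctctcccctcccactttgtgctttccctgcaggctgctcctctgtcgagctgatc
PTGS2: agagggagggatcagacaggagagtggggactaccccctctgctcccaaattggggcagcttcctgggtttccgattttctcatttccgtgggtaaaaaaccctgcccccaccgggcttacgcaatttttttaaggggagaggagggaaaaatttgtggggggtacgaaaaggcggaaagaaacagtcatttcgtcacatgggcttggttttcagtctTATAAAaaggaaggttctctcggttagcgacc
PTGES holds a pair of GC boxes, at 89 and 78 bases before its start, and PTGS2 a TATA box (TATAAA), at 32 bases. TATAAA was present in 6.8% of all 35116 windows. Neither window holds an exact match to the E-box seen in HPGD, an AP-1 site (TGACTCA or TGAGTCA) or a full cAMP response element (TGACGTCA). No forkhead site (TGTTTAC or TGTTTGC and their complements) was matched either. Only these exact letters were sought, so variant sites would be missed. Of the 13 windows of the 9 genes with an entry, 2 hold the E-box, that of HPGD and a window of PTGES2, and 10 hold a GC box. SLCO2A1 had no entry.

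The constitutive enzymes had no probe set past the test either. PTGS1, the constitutive cyclooxygenase, was dim on all 4 probe sets, which lay at percentiles 12.7 to 40.2. Its brightest read 5.49 and 4.91 in knockdown and 5.17 and 5.26 in mock, so the knockdown arrays stood on either side of mock and the change of -0.01 had a wide interval (-0.48 to 0.45). The other 3 PTGS1 probe sets disagreed. On 11722210_a_at, at percentile 18.4, the knockdown arrays read 3.85 and 3.51 and lay below the mock arrays at 4.001 and 4.15. Its change of -0.40 (-0.72 to -0.07) was the most negative among the 24 probe sets of genes other than HPGD. The remaining changes were -0.17 (-0.41 to 0.08) and 0.13 (-0.14 to 0.39).

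PTGES2, a second microsomal synthase, read 10.03 and 10.08 in knockdown and 10.13 and 10.04 in mock, with a change of -0.03 (-0.22 to 0.16) and overlapping arrays, and its second probe set had a change of -0.11 (-0.30 to 0.08). PTGES3, a cytosolic synthase better known as the p23 co-chaperone of HSP90, had one of the brighter signals of the array and read 13.10 on both knockdown arrays and 13.15 and 13.11 in mock (-0.03, -0.21 to 0.14). All 4 of its probe sets lay between -0.03 and 0.03, and all end in _s_at or _x_at.

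The uptake transporter SLCO2A1 read 5.63 and 5.73 in knockdown and 5.66 and 5.77 in mock on its brightest probe set, with a change of -0.04 (-0.24 to 0.17). Its other probe sets had changes of -0.06 and -0.08, and the groups overlapped on all 3. The receptors PTGER2 and PTGER4 raise cyclic AMP when bound by prostaglandin E2. PTGER2 read 5.56 and 5.37 in knockdown and 5.45 and 5.53 in mock (-0.03, -0.26 to 0.21), and its second probe set was near the bottom of the array, at percentile 5.46. PTGER4 read 5.23 and 5.45 in knockdown and 5.44 and 5.41 in mock (-0.08, -0.32 to 0.15), and -0.19 on the second, where knockdown replicate 2 at 4.30 stood below the other arrays at 4.64 to 4.68. Probe sets of these 3 genes lay at percentile 47.1 or below, where RMA values understate a change.

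**Figure D3:**
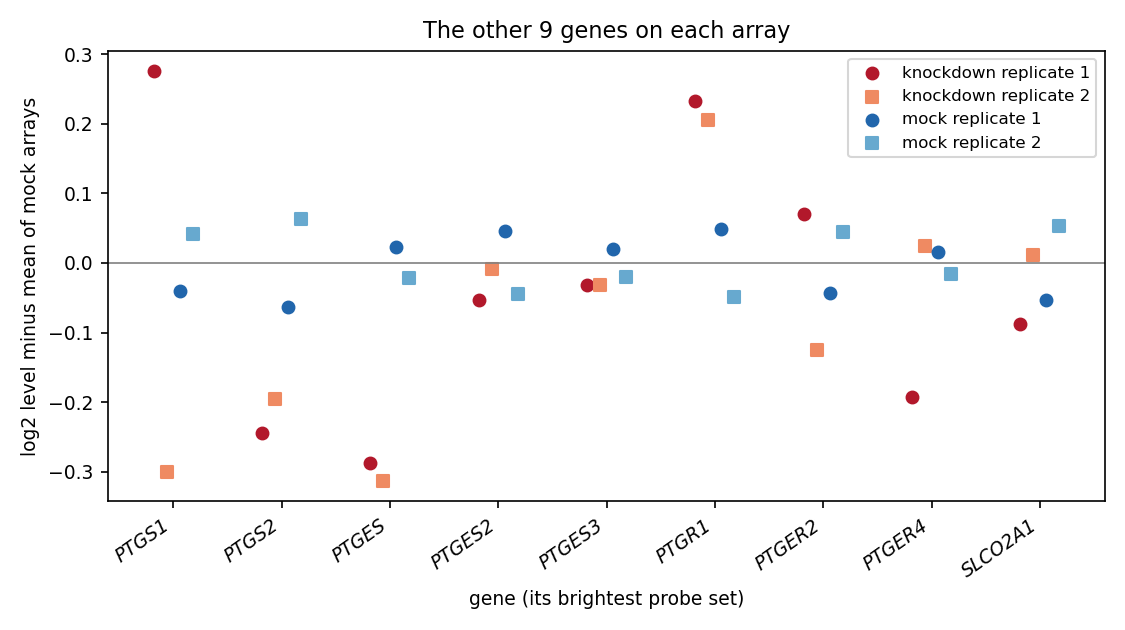
Log2 level on each array minus the mean of the mock arrays (y axis) for the brightest probe set of each gene other than HPGD (x axis), 1 point an array. The knockdown arrays lie below both mock arrays for PTGS2, PTGES and, by 0.01, PTGES3, above both for PTGR1, and overlap mock for the other 5 genes.

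Counted together, 0 of the 24 probe sets of the 9 genes other than HPGD were called in limma, and 5 had an unadjusted p under 0.05, as 16.2% of all probe sets did. These were 1 of PTGS1, 2 of PTGS2, 1 of PTGES and that of PTGR1. The median change was -0.05 over these 24, where it was 0.00 over all probe sets. The arrays did not overlap on 11 of the 24, as on 46.7% of all probe sets, with knockdown below mock on 9 and above it on 2. Over all probe sets 22.5% were below in this way and 24.2% above, and probe sets of a gene share its transcripts, so the 9 are not separate genes: they belong to PTGS1, PTGS2, PTGES, PTGES2 and PTGES3. Since the genes were chosen with this comparison known, nothing is read from these counts.

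**Figure D4:**
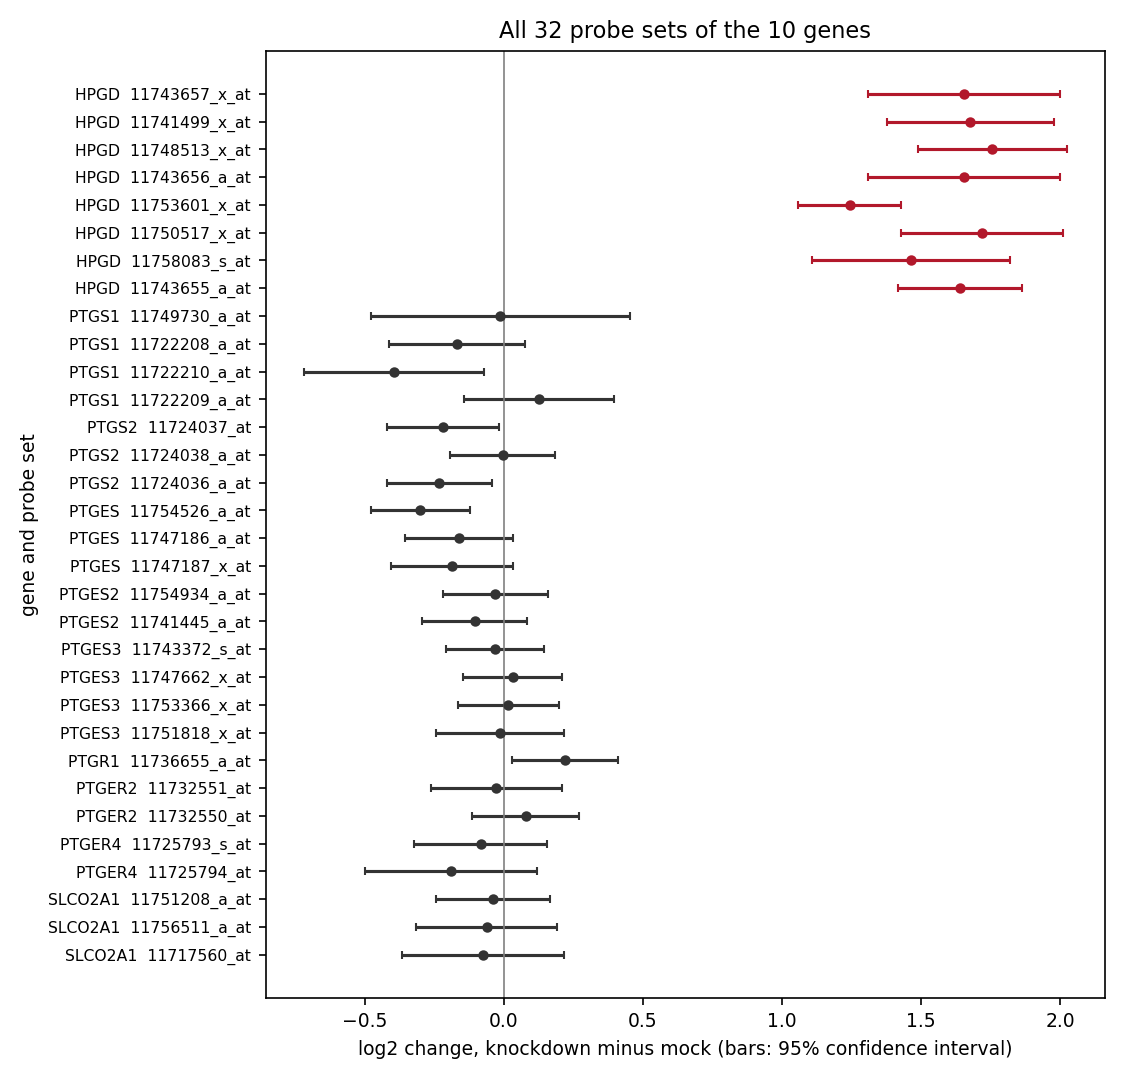
Log2 change of knockdown minus mock (x axis) with its 95% confidence interval (bars) for the 32 probe sets of the 10 genes (y axis), HPGD in red. Intervals of all 8 HPGD probe sets start at 1.06 or higher, and those of the other genes reach from -0.72 to 0.45.

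Other eicosanoid and related genes were taken by function, on 8 lists of 63 genes, of which 58 had a probe set of their own. The 58 include 9 genes known to respond to cyclic AMP and the 4 regulators of HPGD, so they are not the pathway alone. Of these 58, 1 passed the test (AKR1C3, higher) and 0 were lower, where 0.188% of the 18132 genes were called higher and 0.403% in either direction. At an unadjusted p under 0.05, 6 were higher and 6 lower, together 12 of 58, against 17% of all genes. The median change was -0.01, against 0.00 over all genes. These lists too were chosen with earlier results of the data known, so calls of their genes are no further support.

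AKR1C3, an aldo-keto reductase that makes prostaglandin F2 and also reduces steroids, rose 1.63-fold, from 10.08 and 10.06 in mock to 10.81 and 10.74 in knockdown (log2 change 0.71, limma adjusted p = 0.0482). A second, dim probe set had a change of -0.20 (adjusted p = 0.515). The call was lost when only probe sets free of shared probes were tested (0.0552), though AKR1C3 kept the same probe set and change there. Over its alternatives the adjusted p ran from 8.13e-05 to 0.521. None of the 6 other synthases measured passed, among them the prostaglandin D synthase PTGDS (0.29, adjusted p = 0.371) and the thromboxane synthase TBXAS1 (0.12, against -0.16 to 0.00 on its 4 other probe sets).

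The other prostaglandin reductases did not pass. PTGR3 read 8.01 and 8.14 in knockdown and 7.90 and 7.56 in mock (0.34, adjusted p = 0.286). Knockdown was above mock on 5 of its 6 probe sets, where it was on 24.2% of all probe sets. Those of PTGR3 read the same gene and are not separate findings. PTGR2 had a change of 0.20 (0.370) and of 0.14 on its second probe set.

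None of the 12 genes of arachidonate release passed. The phospholipase PLAAT3 had a change of 0.35 (adjusted p = 0.119) and of 0.38 on its other probe set, the diacylglycerol lipase DAGLB of -0.27 (0.209), with -0.28 to 0.05 on its 3 others, and PLA2G4C of -0.24, with -0.34 and -0.21 on its others. PLA2G4A, the cytosolic phospholipase that feeds the cyclooxygenases, had a change of 0.01. None of the 3 transporters passed. At the brightest probe sets SLCO4A1 had a change of 0.21 (adjusted p = 0.274), with 0.01 on its second probe set. The efflux pump ABCC4 had a change of 0.09, and its 3 other probe sets ran from -0.01 to 0.35, the last (11719632_a_at) with knockdown arrays above mock (adjusted p = 0.162). SLCO3A1 had a change of 0.06, and its 3 others ran from 0.02 to 0.26.

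The list of 8 other receptor genes holds 7 prostanoid receptors and PTGFRN, an inhibitor of the prostaglandin F2 receptor that is not itself a prostanoid receptor. Their changes lay between -0.03 and 0.16 at the brightest probe sets, and none passed. PTGFRN had a change of 0.16 (0.05 on its other probe set), and the receptors of smallest unadjusted p had changes of 0.16 (PTGER1) and -0.03 (PTGER3, whose 7 others ran from -0.19 to 0.05). Of 13 lipoxygenase and leukotriene genes 11 had a negative change, against 51.4% of all genes. The median was -0.04, and none passed. ALOXE3 had a change of -0.37 (adjusted p = 0.139), and its 3 other probe sets ran from -0.22 to 0.14. ALOX15B had a change of -0.22, with -0.08 to 0.09 on its 4 others, and the leukotriene receptor CYSLTR1 of -0.16, with -0.25 on its other. The 9 genes known to respond to cyclic AMP had a median of -0.04, and none passed. PDE4D had a change of -0.37 (adjusted p = 0.187), and its 6 other probe sets ran from -0.63 (11760661_at, adjusted p = 0.0501) to 0.14, with 3 of opposite sign. CREM had a change of -0.24, against -0.15 to 0.21 on its 9 others, 5 of them of opposite sign. DUSP1 had a change of -0.22, with -0.24 to -0.04 on its 3 others.

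**Figure D5:**
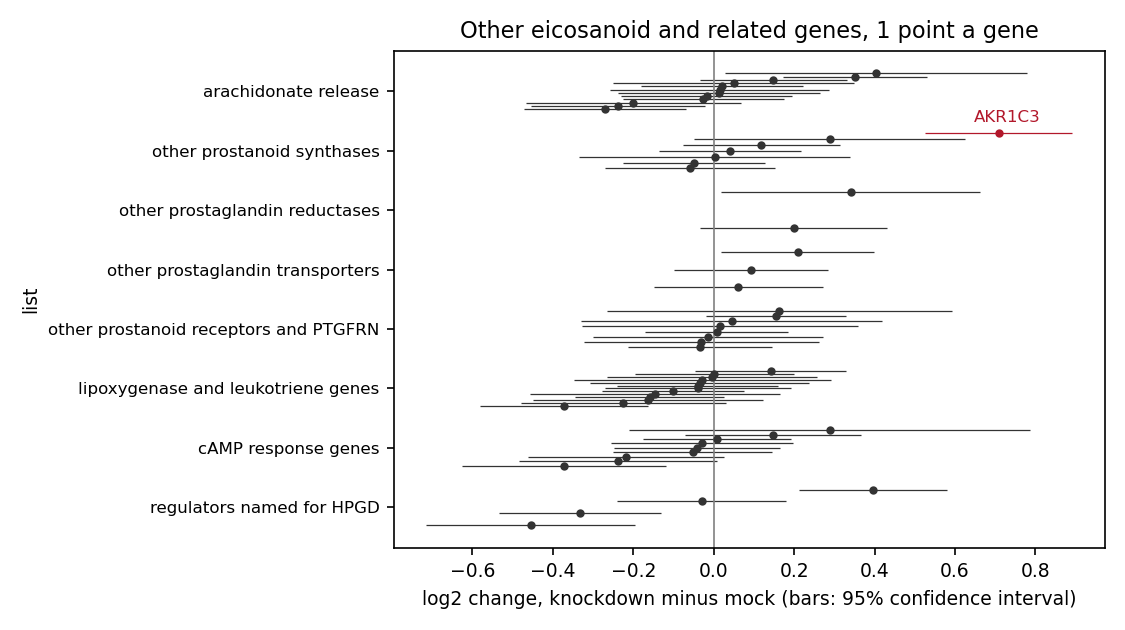
Log2 change of knockdown minus mock (x axis) with its 95% confidence interval (bars) for the 58 listed genes, 1 point a gene at its brightest probe set, grouped by list (y axis). AKR1C3 at 0.71, in red, is the gene past the test, and the others lie between -0.45 and 0.40.

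The genes whose pattern over the 4 arrays was most like that of HPGD were found by the root mean square difference between log2 profiles, each centred on its own mean. With 4 arrays this mostly ranks genes by the size of their rise, and it is a description. FGFBP1, which carries fibroblast growth factors outside the cell, was nearest at 0.22 log2 units with a change of 1.32, followed by the ARID-domain gene ARID5B at 0.24 with a change of 1.22. DDIT4, an inhibitor of mTORC1, stood at 0.29 with a change of 1.08, and the cytochrome P450 gene CYP3A5 at 0.31 with a change of 1.06.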

How the data were processed

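Total RNA (1 µg) of 2 knockdown and 2 mock cultures was labelled with biotin and measured on Affymetrix PrimeView arrays, per the labels' protocols. The authors deposited log2 values, 1 per probe set and array, and the submitters' processing notes name RMA and Partek without versions. RMA sets arrays to a common distribution, so a change in total RNA cannot be seen. Scan batches and the probe sets' build: not given in the sources used here.

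Of 49372 probe sets, 79 controls were left out. The annotation gave 1 gene for 44988 of the rest, several for 1832 and no gene for 2473. A gene was represented by its probe set of highest mean over the 4 arrays. Knockdown was compared with mock by limma 3.58.1 (lmFit, eBayes, R 4.3.3), two-sided, with Benjamini-Hochberg adjustment over 49293 probe sets at 0.05. The procedure was tested on data simulated under the fit's own assumptions, which says nothing of departures from them. Residual degrees of freedom were 2, and the prior added 3.62. SEs and 95% confidence intervals are those of this fit, unadjusted. The labels call the replicates biological and tie no numbers together, so the groups were compared unpaired.

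Members and lists were chosen with earlier results of these data known. All probe sets of the 10 genes, list genes past the test or else the 3 of smallest unadjusted p, and the 5 genes nearest to HPGD in pattern were to be named, and 1 of these 5 is not reported here. PLA2G4A, FOXA2, PTGDS, TBXAS1 and the marker genes were named beyond that rule, for their role. Promoter sequences are those of RefSeq, GRCh38.p14, where 9 of the 10 genes matched by symbol. Alternatives were other array scalings, a filter on dim probe sets, an intensity trend, each array left out, a replicate block, unshared probe sets and the mean over probe sets.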

Additional observations from a re-analysis of the deposited data

How the results depend on the processing

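With an array left out, the HPGD change ran from 1.49 to 1.82 on the log2 scale, both reached by leaving out a mock array, and over its 8 probe sets from 1.20 to 1.87. The filter on dim probe sets, the intensity trend and the blocks cannot move this estimate, and are no sign of its stability. The counts moved more. Against 156 probe sets (74 higher, 82 lower) and 73 genes past the test, centring the arrays on their medians gave 671 (403 higher, 268 lower) and 286, quantile normalization 297 and 138, leaving out the dimmest 25% of probe sets 487 and 221, and an intensity trend in the prior 3209 and 1565. With that trend 5 of the 58 listed genes passed (AKR1C3, PLAAT3, EGFR and SLCO4A1 higher, SNAI2 lower), and so did 1 of the 24 probe sets of genes other than HPGD (PTGES, -0.30, adjusted p = 0.0046). With probe sets free of shared probes 23 probe sets, 12 genes and 0 listed genes passed in limma (11 listed genes at an unadjusted p under 0.05), and both HPGD probe sets left in that test passed. PTGES3 has no such probe set. Without any 1 of the 4 arrays, 0 probe sets, 0 genes and 0 listed genes passed, HPGD and ARID1A included, with 1722 to 2523 genes and 7 to 13 listed genes at an unadjusted p under 0.05. That setting leaves 1 residual degree of freedom, and the lone array of a group is assumed to vary like the other group.

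With the replicate number as a block, 0 probe sets, 0 genes and 0 listed genes passed in limma (2154 genes and 9 listed genes at an unadjusted p under 0.05). Same-numbered arrays deviated from their group means with a correlation of -0.20, so a crossed pairing was added after seeing the data, and it also gave 0, 0 and 0 (3635 genes and 13 listed genes unadjusted). The labels give no pairing, and no effect is called weaker from this.

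Of the other 9 genes, PTGS2, PTGES and PTGR1 kept their sign in the alternatives run (-0.28 to -0.15, -0.32 to -0.22 and 0.17 to 0.27). Their groups do not overlap at the brightest probe set, so leaving out an array could not change the sign. The filter on dim probe sets, the trend and the blocks could not move these estimates either. PTGS1, PTGES2, PTGES3, PTGER2, PTGER4 and SLCO2A1 changed sign in at least 1 alternative. Averaged over its probe sets, PTGES had a change of -0.22. PTGS2 and PTGR1 were called under none of the alternatives.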
